A study of Homo sapiens with 6 samples.

Results

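The peaks described here are the TRIM24 peaks of DHT-treated LNCaP cells that share no base with a TRIM24 peak of vehicle-treated LNCaP cells or of LNCaP-abl cells, called DHT-only peaks below. They number 550 of the 7105 peaks of the DHT list, or 7.74% of that list (95% confidence interval 7.13 to 8.39), and of 37470 peaks in the 3 lists of the series. The members were chosen by the overlap of the deposited peaks of the 3 libraries, so their number and their absence from the other lists are descriptions. Each list comes from 1 chromatin immunoprecipitation sequencing (ChIP-seq) library with an antibody against TRIM24. LNCaP is an androgen-dependent human prostate cancer line, here starved of hormone for 72 h in charcoal-stripped serum and then given 10 nM dihydrotestosterone (DHT) for 4 h. LNCaP-abl, a castration-resistant line kept throughout in stripped serum, received ethanol vehicle for 4 h, and so did the starved LNCaP cells of the control list. Each condition stands on 1 library, so nothing here tests one condition against another.

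TRIM24 is a chromatin protein whose PHD finger and bromodomain together read the tail of histone H3, and it acts as a coregulator of nuclear receptors, among them the androgen receptor. DHT is the most potent natural androgen. The androgen receptor bound by it moves into the nucleus and binds DNA, in prostate cells mostly at enhancers far from gene starts and often beside the pioneer factor FOXA1. A peak in a list means that the peak caller found more reads there than its cutoff asked for, so a missing peak may be a weaker signal as well as none.

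The lists held 7105 peaks under DHT, 20621 in LNCaP-abl and 9744 under vehicle in LNCaP. They give no read numbers, so the depth of the libraries is unknown, and all intervals in the text cover counting error only. Each peak has a score from the authors' peak caller, given as −log10 (of a p-value or else of a q-value), which starts just above 2 in each list. Scores were compared only within a list, since they grow with depth. Positions are in hg19 and no annotation or sequence of that build was used here, so peaks are named by position, without genes or bases.

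DHT-only peaks mostly had low scores. Their median score was 5.74 (interval of the median 5.60 to 5.87), with a lowest score of 2.14 and a highest of 24.9. DHT peaks shared with LNCaP-abl alone had nearly the same median score, 5.65 (5.59 to 5.74), over 1816 peaks. The 4490 DHT peaks found in all 3 lists had a median score of 7.66 (7.39 to 7.84), and the 249 shared with vehicle alone 9.44 (8.71 to 10.3). A score of 10 or more was reached by 53 DHT-only peaks (9.64%, 7.30 to 12.4), against 24.4% of all DHT peaks and 6.002% (4.95 to 7.20) of those shared with LNCaP-abl alone. The DHT-only class was therefore close to the class shared with LNCaP-abl alone in its median score. A larger share of it, though a smaller number of peaks (53 against 109), scored 10 or more. In median score it lay below both classes that had a vehicle peak.

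The DHT-only peaks had a median width of 218 bp (211 to 224). Those shared with LNCaP-abl alone had a median of 244 bp (240 to 249), those shared with vehicle alone 332 bp (296 to 348) and those in all 3 lists 343 bp (335 to 349). The smallest width in each list was 200 bp, and 189 DHT-only peaks (34.4%, 30.4 to 38.5) had exactly this width, against 13.5% of all DHT peaks. The vehicle-only peaks, which are vehicle peaks without an overlap in the other 2 lists, had a median width of 200 bp, with 50.2% (46.8 to 53.5) at 200 bp. Width bears on the rule itself, because a wider peak meets a neighbour more easily, and nothing is read from these widths.

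**Figure D1:**
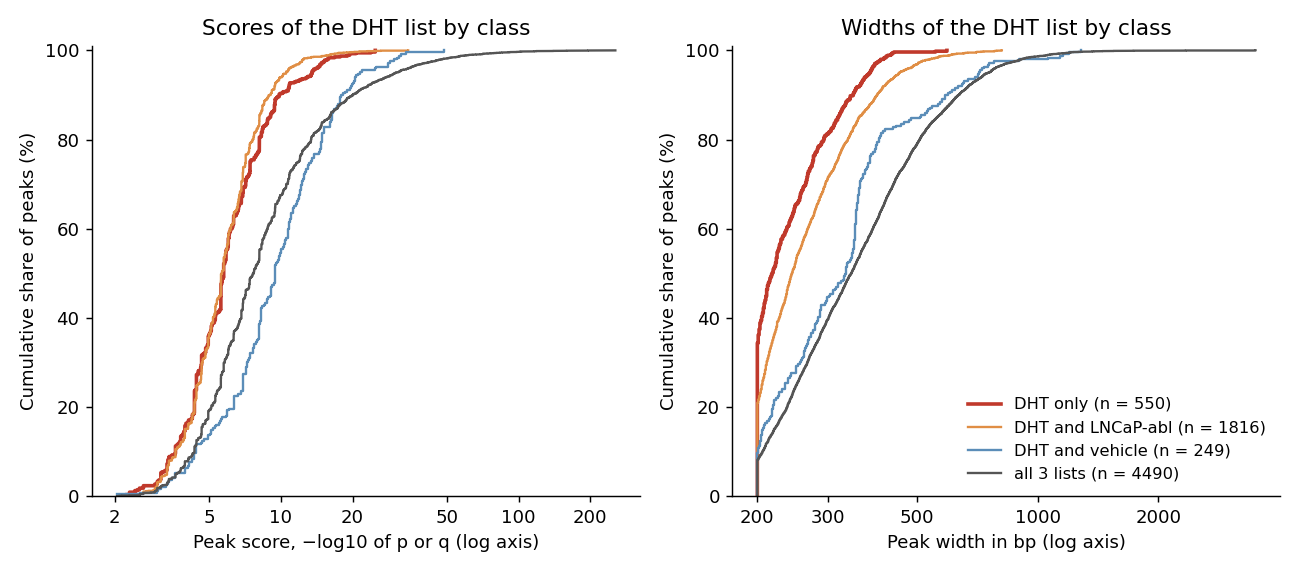
Cumulative share of the peaks of the DHT list (vertical axis, %) against peak score (left, log axis) and peak width in bp (right, log axis), by the lists in which each peak has an overlap. The red curve of the 550 DHT-only peaks follows the orange curve of peaks shared with LNCaP-abl in score, with medians of 5.74 and 5.65, and lies left of the other 3 curves in width, with 34.4% of its peaks at 200 bp.

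The share of DHT-only peaks was largest among the low scores of the DHT list. In the lowest score decile 85 of 711 peaks were DHT-only (12.0%, 9.66 to 14.6), and in the highest decile 9 of 710 (1.27%, 0.581 to 2.39). A vehicle peak was missing at 352 peaks of the lowest decile and at 26 of the highest. Among the 2366 DHT peaks without a vehicle peak, which are 33.3% of the list, 23.2% (21.6 to 25.0) also lacked a LNCaP-abl peak. In the first decile that share came to 24.1% (19.8 to 29.0), and in the tenth to 34.6% (17.2 to 55.7). With scores grouped more coarsely it was 24.7% (20.3 to 29.4) under a score of 4 and 32.7% (25.6 to 40.5) at a score of 10 or more. Between these bands it was 22.5% (19.9 to 25.2) at scores of 4 to 6 and 21.8% (19.1 to 24.7) at scores of 6 to 10. The interval of the highest band lies just above both of these but overlaps that of the lowest. These intervals carry no adjustment for the number of bands, and no difference between bands is read from them. By decile the share ranged between 16.8% (12.9 to 21.4) in the third and 36.9% (26.6 to 48.1) in the ninth.

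**Figure D2:**
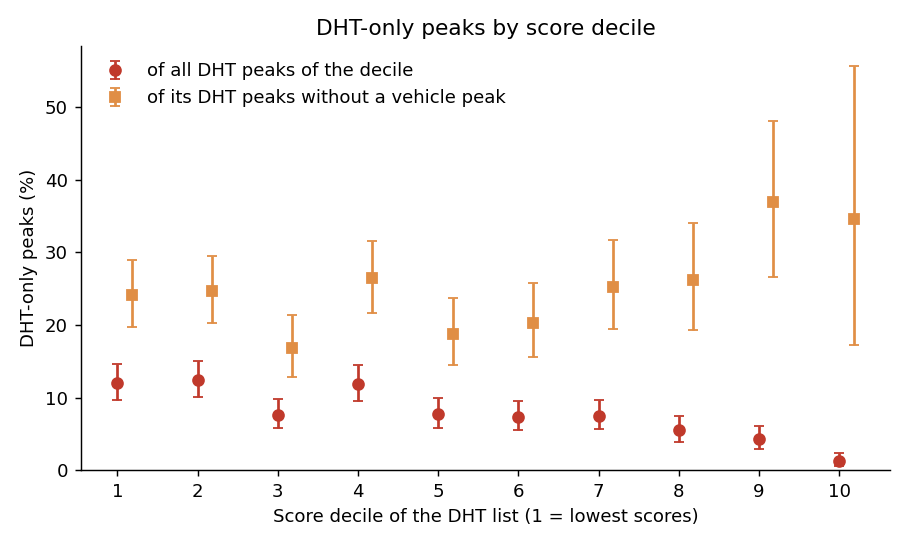
DHT-only peaks as a percentage (vertical axis) of all DHT peaks in each score decile (circles) and of the decile's DHT peaks without a vehicle peak (squares); bars are exact 95% binomial intervals. The circles lie at 12.0% in the lowest decile and 1.27% in the highest, while the squares lie at 24.1% in the lowest decile and 34.6% in the highest.

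The highest-scoring DHT-only peaks were single sites spread over the genome. The 20 with the highest scores lay on 14 chromosomes, scored between 14.6 and 24.9 and were 212 to 434 bp wide. Of these 20, 0 had a vehicle or LNCaP-abl peak within 1 kb, 4 had one within 10 kb, and 9 were more than 50 kb from both.

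The top score, 24.9, was shared by chr1:26734990-26735422 and chr16:11744117-11744411. The peak on chromosome 1 was 433 bp wide and lay 54.2 kb from the nearest vehicle peak and 23.05 kb from the nearest LNCaP-abl peak. The peak on chromosome 16 was 295 bp wide and lay 18.3 kb from the nearest vehicle and 17.5 kb from the nearest LNCaP-abl peak. Both lay over 100 kb from any other DHT peak, so each stood alone in its own list as well. The third, chr8:10847729-10848142, had a score of 23.9 and was 210 kb from a vehicle peak and 68.8 kb from a LNCaP-abl peak. The next, chr2:101087432-101087756, scored 20.7 and was 148 kb from a vehicle peak and 53.1 kb from a LNCaP-abl peak. All 4 of these sites were more than 10 kb from any peak of the other lists.

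A pair of peaks came next with a score of 19.4. The first, chr10:105038492-105038853, had a LNCaP-abl peak 1455 bp away and its nearest vehicle peak at 85.3 kb, and the second, chr18:34850048-34850352, had a vehicle peak 7671 bp away and a LNCaP-abl peak 15.8 kb away. The peak chr6:142410061-142410392 scored 19.0 and lay 57.7 kb from both other lists. The next, chr5:33936131-33936444, scored 17.7, with a LNCaP-abl peak 1684 bp away and the nearest vehicle peak at 71.3 kb. These 2 peaks on chromosomes 10 and 5 were the only ones of the 20 with a LNCaP-abl peak within 2 kb.

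The other 12 scored 16.8 or less. Among them chr10:106584299-106584611, with a score of 15.8, was the most remote from vehicle peaks, at 486 kb, and had a LNCaP-abl peak at 181 kb. On chromosome 20, chr20:35012434-35012852 and chr20:44859464-44859846 both scored 15.3. The first of these had another DHT-only peak 39.2 kb away. Another, chr14:19013247-19013473, scored 14.6 and lay 1123 kb from the nearest LNCaP-abl peak but 8.90 kb from a vehicle peak, in sequence near the centromere of chromosome 14.

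Most DHT-only peaks had no peak of the other lists within 1 kb, and so did most vehicle-only peaks. Of the 550, 438 (79.6%, 76.0 to 82.9) had neither a vehicle nor a LNCaP-abl peak within 1 kb, 333 (60.5%) had none within 10 kb, and 77 (14.0%, 11.2 to 17.2) had none within 100 kb. The median distance was 42.5 kb to the nearest vehicle peak and 22.8 kb to the nearest LNCaP-abl peak. The LNCaP-abl list has more peaks than the vehicle list, which shortens distances to it. DHT peaks shared with LNCaP-abl alone lay closer to vehicle peaks, at a median of 23.5 kb. Of those, 31.2% (29.0 to 33.4) had a vehicle peak within 1 kb, against 11.8% (9.24 to 14.8) of DHT-only peaks.

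A smaller group sat beside sites of the other lists. In all, 112 DHT-only peaks (20.4%, 17.1 to 24.0) had a vehicle or LNCaP-abl peak within 1 kb. Of these, 41 had both, 24 a vehicle peak only and 47 a LNCaP-abl peak only. Among vehicle-only peaks, 24.3% (21.5 to 27.3) had a DHT or LNCaP-abl peak within 1 kb, so such neighbours are not particular to the class. The LNCaP-abl peaks beside 88 DHT-only peaks had a median score of 14.8, against 26.1 over the LNCaP-abl list, at a median distance of 198.5 bp. The vehicle peaks beside 65 of them had a median score of 7.09, against 6.46 over the vehicle list, at a median distance of 264 bp. On the scale of the DHT list, the DHT-only peaks with such neighbours scored 5.39 at the median beside LNCaP-abl peaks and 5.74 beside vehicle peaks, and all 550 scored 5.74. A further DHT peak lay within 1 kb of 64 DHT-only peaks, and at 51 of these it was a peak found in at least 1 other list. For the 112 peaks, absence from the other lists means absence at these bases, with a called peak of another list beside them.

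**Figure D3:**
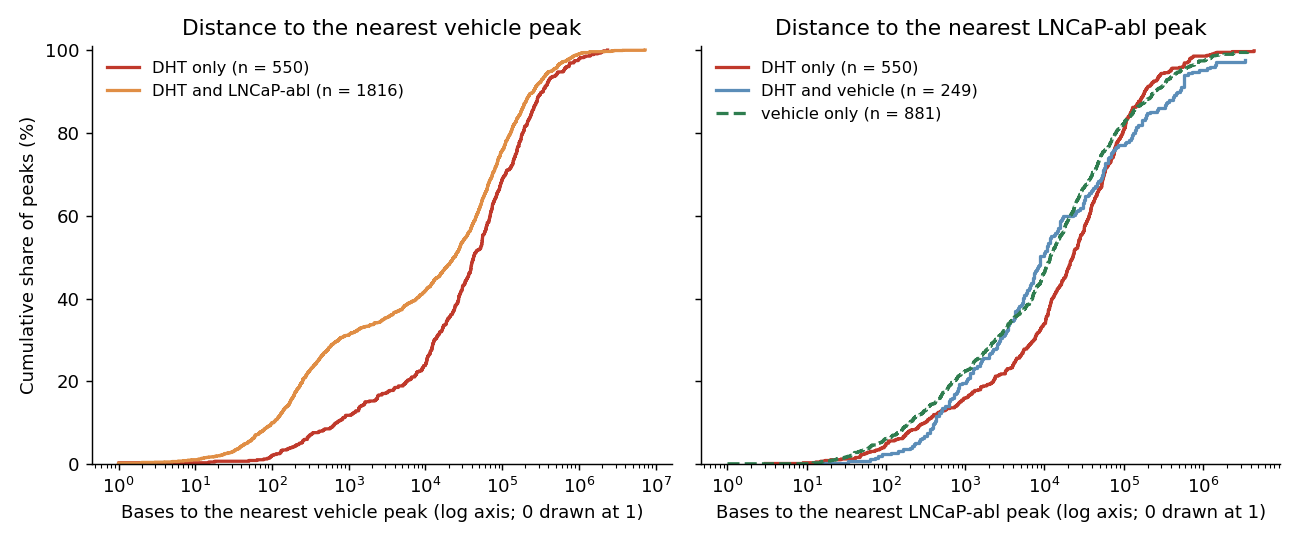
Cumulative share of peaks (vertical axis, %) against the number of bases to the nearest vehicle peak (left) and to the nearest LNCaP-abl peak (right), on log axes. The red curve of the 550 DHT-only peaks reaches 11.8% at 1 kb from a vehicle peak, below the 31.2% of DHT peaks shared with LNCaP-abl alone, and 16.0% at 1 kb from a LNCaP-abl peak, beside 22.5% of vehicle-only peaks.

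The rule turns on 1 bp, and the peaks at its edge show this. Just inside it, chr15:27216396-27216677, with a score of 4.33, touched a vehicle peak with no base between them, and chr9:79249842-79250041, with a score of 4.82, was 1 bp from one. The peak chr10:129705516-129705715 lay 3 bp from a LNCaP-abl peak and 18 bp from a vehicle peak. The peaks chr19:5046130-5046348 and chr2:219824807-219825050 were 9 and 13 bp from a LNCaP-abl peak. Just outside it, chr19:18809425-18809956, with a score of 11.0, shared 1 bp with a vehicle peak, and chr3:47018262-47018461 shared 5 bp with one. The peaks chr19:49323104-49323335, chr14:69950689-69950888 and chr11:2466159-2466397 shared 6, 7 and 10 bp with a LNCaP-abl peak. Scores ran from 4.22 to 5.59 for the 5 peaks just inside and from 4.07 to 11.0 for the 5 just outside.

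At the other extreme, 12 DHT-only peaks lay more than 500 kb from any peak of the other lists. The most remote was chrX:27398645-27398851, 2.36 Mb from the nearest LNCaP-abl peak and 2.37 Mb from the nearest vehicle peak, with a score of 5.87. Next came chr16:7215756-7215955, with a score of 4.41 at 1.499 Mb, and chr18:40857159-40857480, with a score of 13.7 at 1.40 Mb. The peak chr13:85496601-85496847 scored 10.7 and lay 1.04 Mb from a vehicle peak and 4.43 Mb from a LNCaP-abl peak. The last of the 5, chr12:85430068-85430271, scored 7.71 at 0.990 Mb. Remoteness thus came with low and moderate scores alike, and the 77 peaks over 100 kb from both lists had a median score of 6.05.

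The 3 widest DHT-only peaks had scores between 4.95 and 8.91, against quartiles of 4.41 and 7.41 over the class. The widest, chr16:90060854-90061447, spanned 594 bp with a score of 7.11 and had a LNCaP-abl peak 254 bp away and a vehicle peak 471 bp away. The next, chr9:116243567-116244122, spanned 556 bp with a score of 8.91, 17.4 kb from a LNCaP-abl peak. The third, chr20:58401328-58401765, spanned 438 bp with a score of 4.95 and was over 100 kb from both lists.

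Most DHT-only peaks shared their 1 Mb window with no other DHT-only peak. Peaks of the other lists are not counted in this, and 86.0% of DHT-only peaks had one within 100 kb. They fell into 427 windows of 1 Mb, and 340 windows held a single one. Neighbouring DHT-only peaks on a chromosome were a median of 1.84 Mb apart, and 21 of 525 such neighbours were less than 10 kb apart. The 20 windows with 3 or more held 76 peaks, 13.8% of the class.

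Several windows with 3 or more DHT-only peaks, among them the 3 with the most, lie near centromeres by general knowledge of the build, since no centromere positions were in the files. Chromosome 10 from 42 to 43 Mb held 9, with scores between 3.47 and 8.98, among 44 DHT, 18 LNCaP-abl and 43 vehicle peaks. Chromosome 7 from 61 to 62 Mb held 5 among 17 DHT, 2 LNCaP-abl and 14 vehicle peaks. Chromosome Y from 13 to 14 Mb also held 5, among 8 DHT, 7 LNCaP-abl and 7 vehicle peaks, and these were all the DHT-only peaks of that chromosome. Chromosome 2 from 89 to 90 Mb held 4 among 11 DHT, 1 LNCaP-abl and 7 vehicle peaks, and chromosome 11 from 51 to 52 Mb held 3 among 12 DHT, 1 LNCaP-abl and 13 vehicle peaks. DHT peaks outnumbered LNCaP-abl peaks in these windows on chromosomes 2, 7, 10, 11 and Y, and on chromosome 1 from 7 to 8 Mb. These 6 windows held 29 DHT-only peaks. All windows here were picked for holding DHT-only peaks, which favours DHT over LNCaP-abl peaks, so nothing is read from this.

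The other 14 windows had more LNCaP-abl than DHT peaks and held 47 DHT-only peaks. Among those with 4 DHT-only peaks, chromosome 17 from 27 to 28 Mb had 16 DHT, 30 LNCaP-abl and 19 vehicle peaks, and its DHT-only scores reached 14.3. Chromosome 9 from 134 to 135 Mb had 11 DHT, 12 LNCaP-abl and 8 vehicle peaks. Chromosome 10 from 134 to 135 Mb had 14 DHT, 31 LNCaP-abl and 18 vehicle peaks, and chromosome 8 from 143 to 144 Mb had 9 DHT, 21 LNCaP-abl and 10 vehicle peaks. Chromosome 1 from 247 to 248 Mb had 7 DHT, 9 LNCaP-abl and 4 vehicle peaks. DHT-only peaks made up 4 of 16 DHT peaks in the window on chromosome 17 and 4 of 7 in that on chromosome 1. In the most crowded of the 14, chromosome 9 from 139 to 140 Mb, with 29 DHT, 72 LNCaP-abl and 41 vehicle peaks, the 3 DHT-only peaks had scores of 2.49 or less.

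By position along the chromosome DHT-only peaks resembled the other DHT peaks, while the vehicle-only peaks stood apart from the rest of their list. The vehicle-only peaks are the mirror class, 881 vehicle peaks (9.04% of 9744, 8.48 to 9.63) that overlap no DHT and no LNCaP-abl peak. Within 5 Mb of the outermost peak of any list on a chromosome lay 109 of 549 nuclear DHT-only peaks (19.9%, 16.6 to 23.4) and 18.8% (17.9 to 19.8) of the other DHT peaks. Of the vehicle-only peaks, 326 of 877 lay there (37.2%, 34.0 to 40.5), and of the other vehicle peaks 19.6% (18.7 to 20.4). Chromosome lengths were not used, so on acrocentric chromosomes one of these outermost peaks lies beside the centromere. The LNCaP-abl list had 19.8% (19.2 to 20.3) of its peaks there. The intervals of the DHT-only and vehicle-only shares do not meet, but they compare 2 single libraries and not treatments.

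The contrast was present among peaks of 200 bp, among wider peaks, and among peaks at or above the median score of their own class. Among peaks of 200 bp it was 19.0% (13.7 to 25.4) of DHT-only against 35.3% (30.8 to 39.9) of vehicle-only peaks, and among wider peaks 20.3% (16.2 to 24.8) of DHT-only against 39.1% (34.5 to 43.8) of vehicle-only peaks. At or above the median score of each class it was 17.3% (13.0 to 22.2) of DHT-only against 33.3% (29.0 to 37.7) of vehicle-only peaks. Those medians, 5.74 and 4.82, come from different lists, so this split does not match the classes by score. In lists of equal length the DHT-only share was 18.6% and the vehicle-only share 25.0%. When only the better-scoring 50% of peaks was kept from every list, the share was 18.7% (15.2 to 22.7) for DHT-only and 23.5% (19.6 to 27.6) for vehicle-only peaks, and these intervals overlap. A reciprocal overlap of at least 50% gave 20.6% for DHT-only and 23.8% for vehicle-only peaks. These settings also change which peaks belong to the classes, and the cause of the smaller contrast was not tested.

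**Figure D4:**
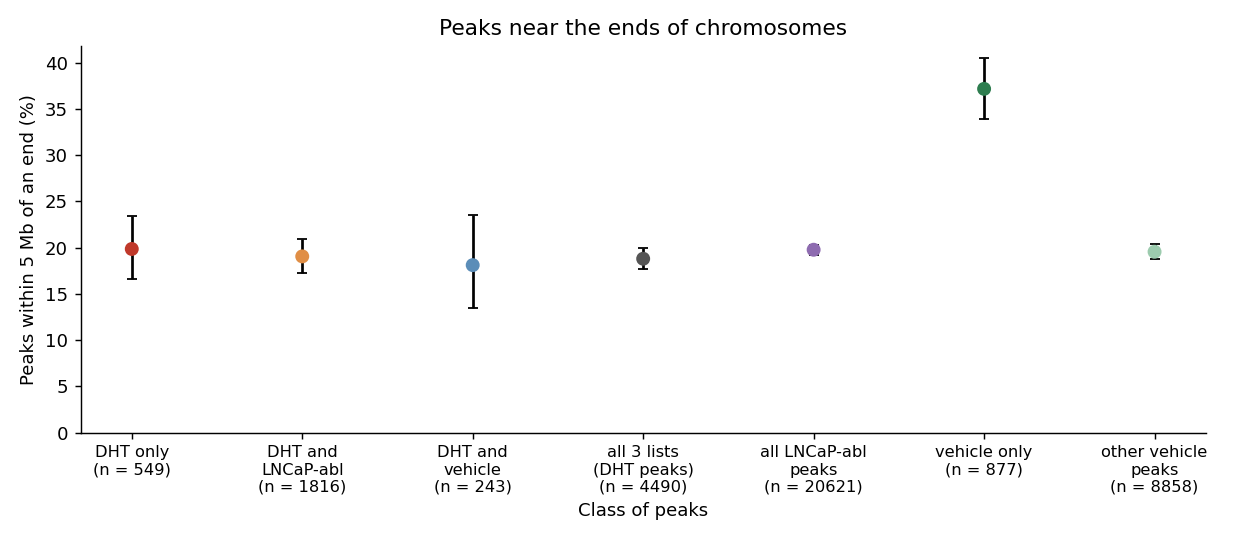
Share of peaks (vertical axis, %) within 5 Mb of the outermost peak of any list on their chromosome, for classes of the DHT list, the LNCaP-abl list and classes of the vehicle list; bars are exact 95% binomial intervals and n is the number of nuclear peaks. The DHT-only peaks, at 19.9%, lie level with the other classes, and the vehicle-only peaks, at 37.2%, lie above them.

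On most chromosomes the share of DHT peaks that were DHT-only had an interval that held the 7.74% of the whole list; chromosomes 3, 4, 10 and Y were the exceptions. Among the autosomes and X it was highest on chromosome 18, with 17 of 148 peaks (11.5%, 6.84 to 17.8), chromosome 10, with 39 of 363 (10.7%, 7.75 to 14.4), and chromosome 9, with 34 of 337 (10.1%, 7.09 to 13.8). Without chromosome 10 from 42 to 44 Mb, beside the centromere, the share on chromosome 10 was 8.68% (5.80 to 12.4). The 1 Mb windows left out held 9 DHT-only among 44 DHT peaks and 3 among 8. Leaving them out therefore lowers the share by construction, and nothing is read from the lower value. It was lowest on chromosome 13, with 5 of 141 (3.55%, 1.16 to 8.08), chromosome 4, with 11 of 272 (4.04%, 2.04 to 7.12), and chromosome 3, with 16 of 360 (4.44%, 2.56 to 7.12). These intervals carry no adjustment for the 25 sequences compared. Chromosome Y, with 5 of 11 peaks (45.5%, 16.7 to 76.6), rests on the window beside its centromere. On chromosome 4 the vehicle-only share was 11.8% (8.78 to 15.4), so this chromosome was low in the DHT-only class and not in the vehicle-only class. On chromosome 19 the DHT-only share was 8.48% (5.94 to 11.6) and the vehicle-only share 12.9% (10.3 to 15.8). A single DHT-only peak lay on the mitochondrial genome, which had 7 DHT, 0 LNCaP-abl and 9 vehicle peaks, and it had a vehicle peak 136 bp away.

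**Figure D5:**
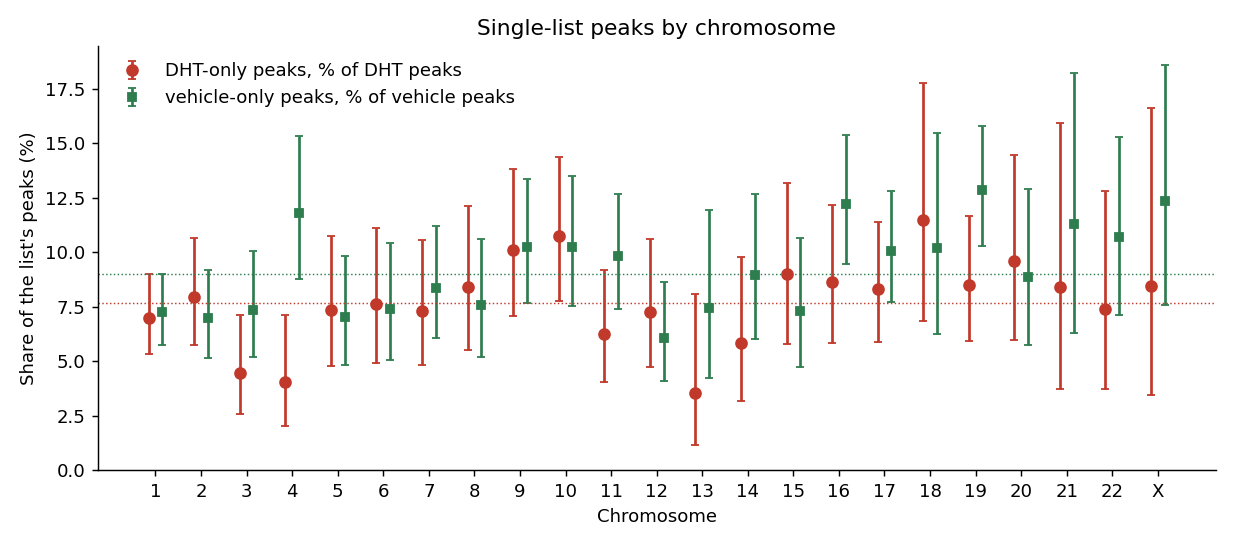
Single-list peaks as a percentage (vertical axis) of the peaks of their own list on each chromosome, with DHT-only peaks as circles and vehicle-only peaks as squares; bars are exact 95% binomial intervals and dotted lines the shares over the chromosomes shown. DHT-only shares run from 3.55% on chromosome 13 to 11.5% on chromosome 18. The intervals of chromosomes 3, 4 and 10, at 4.44%, 4.04% and 10.7%, leave out the 7.74% of the whole list. Vehicle-only shares are highest on chromosomes 19, X and 16, at 12.9%, 12.3% and 12.2%. The intervals carry no adjustment for the number of chromosomes.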

How the data were processed

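The deposited files are 3 peak lists in hg19, with 1 TRIM24 library each. The 3 input libraries were not analysed here. FastQC 0.10.0, Bowtie 0.12.7 and MACS2 2.0 are named, per the submitters' processing notes. Read filters, the control and the cutoff of the peak caller are not stated there. The score in the authors' lists was read as −log10 (p-value or q-value, not said which) from MACS2's usual output and from its lowest values.

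DHT-only peaks were found with Python 3.11.15 (numpy 2.4.6, pandas 2.3.3, scipy 1.17.1) as DHT peaks sharing no base with a peak of another list, and bedtools 2.31.1 gave the same 550 peaks. On simulated lists the code found 2333 of 2333 planted overlaps and 0 false ones. Printed starts count from 1, and distances count the bases between peaks. Shares carry exact Clopper-Pearson 95% intervals and medians exact binomial ones, which treat peaks as independent, although neighbours are not. Figures were drawn with matplotlib 3.10.9. Members, lists and alternatives were chosen with earlier results of these data known. The peaks named were the 20 with the highest scores (some as a range), 5 on each side of the rule's edge, the 5 most remote, the 3 widest and windows of 1 Mb with 3 or more. Chromosome ends were examined after the data were seen. Promoter shares, gene lists, base composition, motifs and printed sequences had been planned, but need sequence or annotation of hg19 and were not run.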

Additional observations from a re-analysis of the deposited data

How the results depend on the processing

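No paired analysis was possible because there is a single library for every condition, which also means that none can be left out. Of 68 values under 10 alternatives, 38 stayed within the interval of the reported value or within 1.5 times the count. A score of at least 3, and leaving out the mitochondrial and Y sequences, moved none of the 8 results; no peak lay on an unplaced sequence. With a reciprocal overlap of at least 50% there were 3323 DHT-only peaks, 46.8% of the list, with a median width of 244 bp. Of these, 65.2% lay within 10 kb of a vehicle peak and 88.5% within 10 kb of a LNCaP-abl peak, since overlaps under 50% then count as absent. The vehicle-only share near chromosome ends was 23.8%. With lists of equal length there were 1503, 21.2% of the list, with a median width of 234 bp and 14.2% within 10 kb of a LNCaP-abl peak; the vehicle-only share near ends was 25.0%. All 550 were among them, since that setting removes peaks only from the other lists. With the better-scoring 50% of each list the DHT-only share was 12.4%, the median score 8.77 and the median width 278 bp, with 19.6% within 10 kb of a vehicle and 15.5% of a LNCaP-abl peak, and 23.5% of vehicle-only peaks near ends. That class held 439 peaks, of which 181 were among the 550. Its median score is higher by construction, since low scores were left out. With peaks of 400 bp the share was 10.6%, the width 400 bp by construction, and 39.5% lay within 10 kb of a vehicle and 51.8% of a LNCaP-abl peak; 33.4% of vehicle-only peaks lay near ends. Counting peaks less than 1 kb apart as overlapping gave 6.16%, with 13.0% within 10 kb of a vehicle and 20.1% of a LNCaP-abl peak. It drops only DHT-only peaks with a neighbour within 1 kb, so these 3 values fall by construction. Without the 20 windows of 3 or more DHT-only peaks, chosen after the data were seen, the share was 6.93%. Windows picked for their DHT-only peaks lower the share by construction when left out. Within 2 Mb of the ends lay 11.1% of DHT-only and 24.3% of vehicle-only peaks. Within 10 Mb lay 32.1% of DHT-only and 46.3% of vehicle-only peaks. A shorter distance cannot raise such a share and a longer one cannot lower it. Unless a reason stands beside a value, the cause was not tested. The unknown depth limits any reading of an absent peak.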

Other observations

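Tied scores were common over the whole DHT list, and the DHT-only peaks shared this. The 550 peaks held 228 different scores, and 511 of them (92.9%) had the same score, to 5 decimals, as another DHT peak. Over the whole DHT list this was 90.0% of peaks, and its 7105 peaks held 1284 different scores. Ties are thus not particular to the class. The commonest score among DHT-only peaks was 4.329, with 23 peaks, out of 65 DHT peaks at that value, and 4.41 came next with 19 of 124. At 5.87 the DHT-only peaks were 11 of 22, and at 7.41 they were 11 of 23. These are the largest shares among the commonest DHT-only scores, picked after the values were seen, beside 7.74% over the whole list. At 5.589 and 5.744 there were 16 DHT-only peaks each, out of 161 and 149 DHT peaks. Ties thus ran from the lower end of the class through its median of 5.74 to its upper quartile of 7.41. Its top score of 24.9 was tied as well.

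Of the 109 DHT-only peaks near the end of a chromosome, 11 each lay on chromosomes 2 and 17 and 10 on chromosome 16. Of the 326 vehicle-only peaks near an end, 43 lay on chromosome 16, 41 on chromosome 19 and 28 on chromosome 17. No difference in spread between the classes is read from these counts.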
